A study of Sus scrofa with 8 samples.

Results

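The regions described here are wide stretches of the pig genome that carried H3K27ac over a similar length in 2 cell types. Of 98547 regions obtained by merging the H3K27ac islands of 4 libraries on chromosomes 1 to 18, 20051 held an island from every library, 3531 of these were at least 20 kb wide, and 956 of those were kept as shared. A region was kept when its mean covered length in the pgEpiSC pair and in the pEF pair differed by less than 1.5-fold, covered length being the base pairs of the region that lie in islands of a library. Among the other broad regions, 1755 were longer in pgEpiSC and 820 were longer in pEF. The regions were chosen by covered length in the same 4 libraries, so the pgEpiSC and pEF values below are a description of the chosen regions and carry no test.

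The first cell type was pgEpiSC, pig pre-gastrulation epiblast stem cells kept as stable lines, derived from the embryonic epiblast at day 10 of development and represented by the libraries numbered 1 and 4. The other was pEF, fibroblasts from pig fetuses at day 30, represented by the libraries numbered 1 and 2. No treatment or genetic change was given for either type, and the sources used here do not say whether libraries of 1 type came from different lines, animals or cultures, so the spread between them may be technical. An input library, sequenced without the antibody, stood beside each H3K27ac library, and its reads appear as counts inside the island lists.

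H3K27ac is the acetylation of lysine 27 of histone H3, a mark that acetyltransferases such as p300 and CBP deposit at active promoters and enhancers. Most acetylated sites are narrow, and long acetylated stretches often gather several regulatory elements near genes that a cell transcribes strongly. Regions of this kind are best known for the genes that set a cell's identity, and they also lie at widely used genes such as those of the cytoskeleton and of the response to growth signals.

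The 4 lists held 55621 to 71611 islands with 28625531 to 45129916 ChIP reads in them, and the islands covered 397 and 401 Mb in pgEpiSC 1 and 4, against 265 and 267 Mb in pEF 1 and 2. The libraries differed in their contrast to input: the median island had an authors' fold of 1.79 and 1.67 in the pgEpiSC libraries, against 3.40 and 3.45 in the pEF libraries. Of 8 epiblast marker genes, 6 had a gene end in a broad region longer in pgEpiSC, among them POU5F1, SOX2 and NANOG. Of 8 fibroblast marker genes, 5 had an end in a broad region longer in pEF, among them COL1A1, FN1 and PRRX1. None of these 16 genes had an end in a shared broad region.

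The shared broad regions ranged from 20 to 218.8 kb in width, with a median of 28.4 kb and quartiles of 23.2 and 39.4 kb, and together spanned 33.8 Mb. A typical region was not 1 continuous island: the median number of islands per region was 2, 3, 2 and 2 in pgEpiSC 1, pgEpiSC 4, pEF 1 and pEF 2. Islands covered a median of 77.1% and 73.8% of the region in pgEpiSC 1 and 4, against 72.1% and 73.0% in pEF 1 and 2. At 44 regions 1 island spanned the whole width in at least 1 library, and at 0 regions in all 4. Covered length was longer in pgEpiSC at 523 regions, longer in pEF at 428 and equal at 5, with a median ratio of 1.04. Both pgEpiSC libraries had longer coverage than both pEF libraries at 303 regions, and the opposite held at 217, while over all regions with an island in every library these shares were 48.1% and 20.8%. The length rule removes the largest differences, so nothing is read from these counts.

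**Figure D1:**
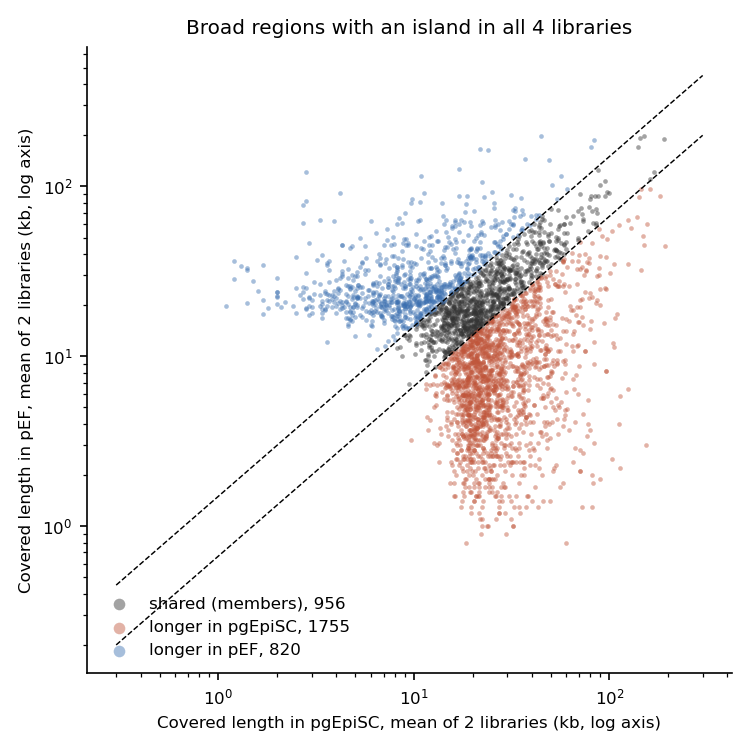
Each point is 1 of the 3531 broad regions with an island in all 4 libraries. The x axis gives the mean covered length of the 2 pgEpiSC libraries and the y axis that of the 2 pEF libraries, in kb on log axes, and the dashed lines mark a 1.5-fold difference. The 956 shared regions lie between the lines, with 1755 regions on the pgEpiSC side and 820 on the pEF side.

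Values close to the thresholds show how much the limits decide. The narrowest regions kept were 20 kb wide, a width found in 72 regions with an island in every library, at any length ratio. Those kept included a region at FOXF1 whose mean covered length was 8.90 kb in pgEpiSC, against 13.3 kb in pEF. The widest regions left out on width measured 19.8 kb, a width found in 61 regions with an island in every library, at any length ratio. One left out on width alone, at SP1, had 18.2 kb covered in pgEpiSC, against 15.8 kb in pEF. On the length ratio, a region at RCAN2 was kept at 1.497-fold, and another region named for ATF3 was left out at exactly 1.5-fold, with 32.7 kb covered in pgEpiSC, against 21.8 kb in pEF.

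Coordinates are those of the authors' lists, in a build that is not named there and whose unplaced sequences carry names of the assembly Sscrofa11.1. The widest shared region, chr16:20158601-20377400, held an end of RAI14, whose product is an actin-associated ankyrin repeat protein. Islands covered 166 and 135 kb of it in pgEpiSC 1 and 4, against 189 and 207 kb in pEF 1 and 2. ChIP reads over scaled input reads stood there at 1.94 and 1.64 in pgEpiSC, against 7.34 and 8.23 in pEF, so similar length did not mean similar contrast to input. Of the 956 shared regions, 334 were under 2-fold over input in both pgEpiSC libraries, and 431 reached at least 2-fold in all 4 libraries. The median over the shared regions was 2.15 and 1.99 in pgEpiSC 1 and 4. Over all regions with an island in every library it was 2.12 and 1.95, so the weak contrast was not particular to the shared regions. At RBPMS, an RNA-binding protein gene, the 202.2 kb region chr15:54529201-54731400 was covered over 184 and 197 kb in the pgEpiSC libraries, against 185 and 193 kb in the pEF libraries. The 4 RBPMS lengths overlapped between the cell types, and those at RAI14 did not. FNDC3B, a fibronectin type III domain gene, had a 202.0 kb region, chr13:110583401-110785400, covered over 147 and 140 kb in pgEpiSC 1 and 4, against 185 and 198 kb in pEF 1 and 2. KLF7, a Krüppel-like transcription factor gene, had a 185.6 kb region, chr15:110203401-110389000, covered over 148 and 130 kb in the pgEpiSC libraries, against 183 and 160 kb in the pEF libraries. Both of these were longer in each pEF library than in each pgEpiSC library.

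At the other 3 of the 10 widest regions with a gene end, coverage was longer in both pgEpiSC libraries than in both pEF libraries. ZMYND8, whose product binds acetylated histones, had a 183.4 kb region, chr17:49249201-49432600, covered over 167 and 171 kb in pgEpiSC 1 and 4, against 136 and 108 kb in pEF 1 and 2. LITAF, an endosomal and lysosomal membrane protein gene, had a 174.6 kb region, chr3:31468201-31642800, covered over 164 and 160 kb in the pgEpiSC libraries, against 108 and 114 kb in the pEF libraries. NUAK1, which encodes a kinase related to AMPK, had a 111.6 kb region, chr5:14072801-14184400, covered over 103 and 96.8 kb in pgEpiSC, against 90.8 and 91.2 kb in pEF. At each of these 3 genes the lengths of the cell types did not overlap. The other members of the 10 widest held no gene end. A region of 140.8 kb, with PRL the nearest coding gene 176.2 kb away, was covered over 102 and 87.4 kb in pgEpiSC 1 and 4, against 98.2 and 116 kb in pEF 1 and 2. One of 132.0 kb, with ANAPC1 as its nearest gene, was covered over 90 and 84.4 kb in the pgEpiSC libraries, against 119.6 and 131 kb in the pEF libraries. One of 110.8 kb inside COL4A2, a basement membrane collagen gene, was covered over 74.4 and 89 kb in pgEpiSC, against 56.6 and 86.6 kb in pEF. Lengths overlapped between types at the first and last of these, and both pEF lengths were longer near ANAPC1. Of the 15 regions 100 kb or wider, 12 held a gene end (80.0%), compared with 45.8% of the 524 regions between 20 and 30 kb. A wider region spans more sequence and can meet a gene end more often for that reason, which was not tested.

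**Figure D2:**
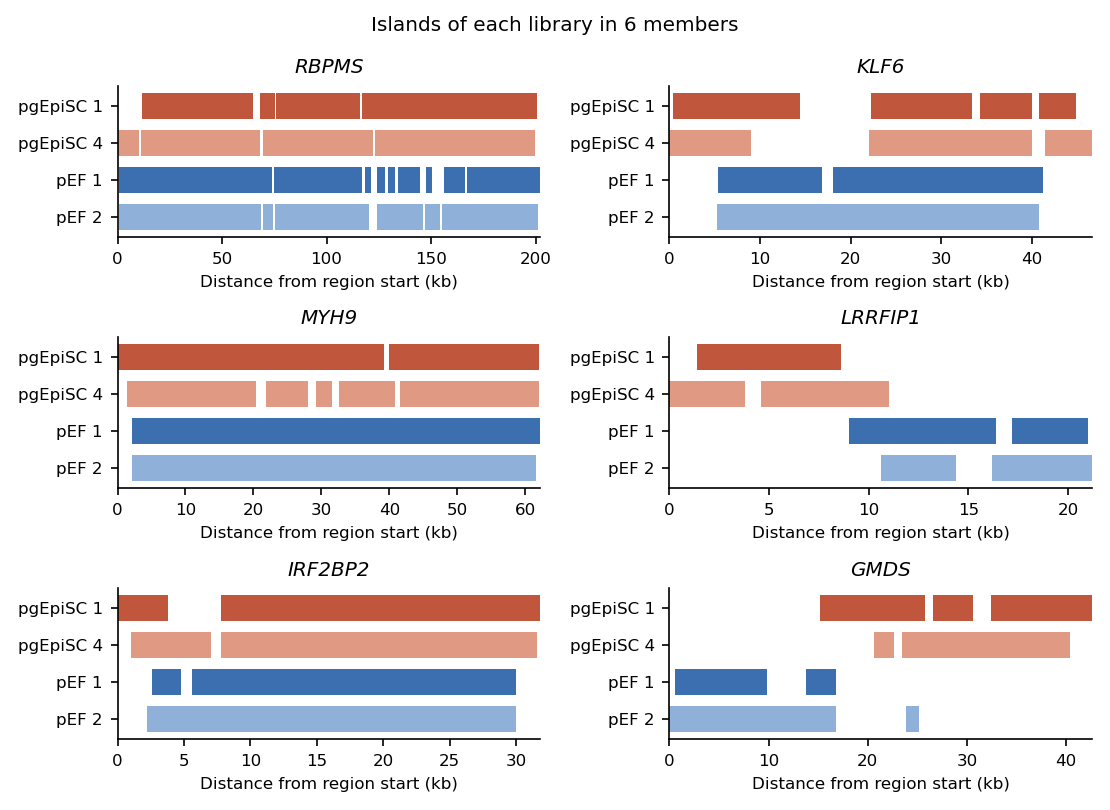
Bars show the islands of each library, pgEpiSC above pEF, along 6 shared broad regions named by the gene they hold, with the distance from the region's start in kb on the x axis. Islands of all 4 libraries cover most of RBPMS, MYH9 and IRF2BP2, the flanks of KLF6 are covered in pgEpiSC only, and the islands of LRRFIP1 and GMDS lie largely in different parts of the region in the 2 cell types.

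Similar length did not mean the same base pairs. Overlap was measured with the Jaccard index, the base pairs covered in both of 2 libraries divided by those covered in either. Its median over the 956 regions was 0.605 and 0.604 for pgEpiSC 1 with pEF 1 and pEF 2, and 0.579 and 0.595 for pgEpiSC 4 with pEF 1 and pEF 2. Within a cell type the medians were 0.727 for the pgEpiSC pair and 0.791 for the pEF pair. Averaged over the 4 pairs across cell types, the index was below both indices within a cell type at 715 of 956 regions (74.8%). It reached at least 0.8 at 52 regions and was under 0.25 at 42. The length rule bears on this index: its median across cell types was 0.244 in the broad regions longer in pgEpiSC and 0.293 in those longer in pEF, where lengths differ by choice.

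**Figure D3:**
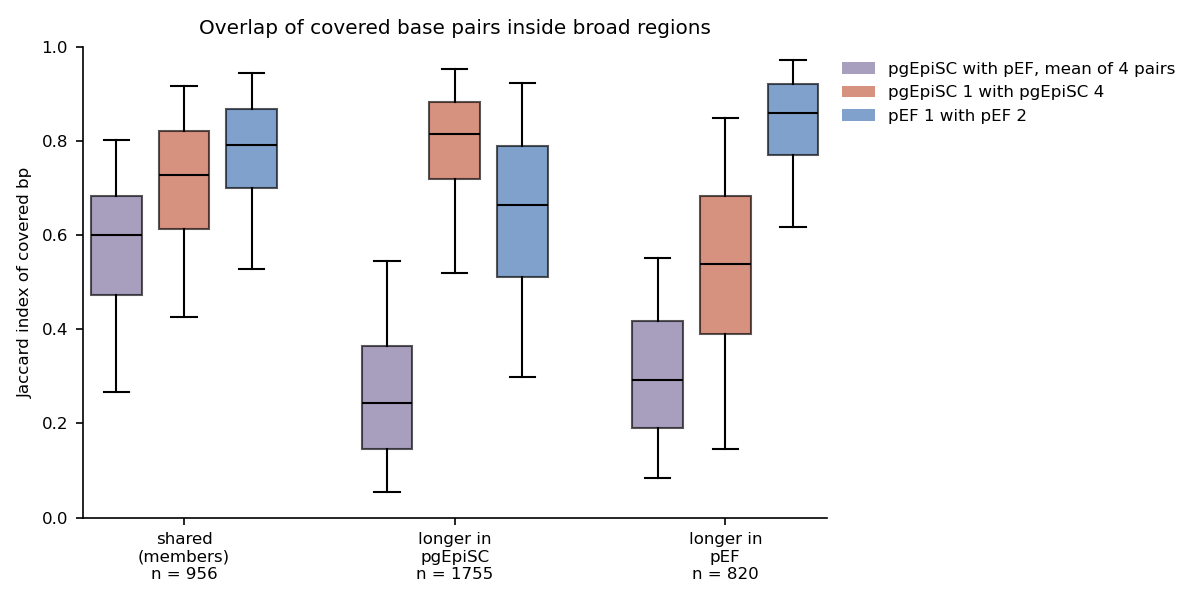
Boxes give the Jaccard index of covered base pairs (median and quartiles, whiskers at the 5th and 95th percentiles) in the 3 classes of broad region, for pgEpiSC with pEF, for the pgEpiSC pair and for the pEF pair. In the 956 shared regions the median across cell types was 0.602, below the 0.727 of the pgEpiSC pair and the 0.791 of the pEF pair.

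Among the regions of highest overlap, MYH9, which encodes a non-muscle myosin heavy chain, had an index of 0.928 across cell types, with 0.893 within pgEpiSC and 0.990 within pEF. SEPT11, a septin gene, IL4R, the interleukin 4 receptor gene, and C10H9orf3 followed at 0.915, 0.914 and 0.911 across cell types. At these regions other than that of IL4R the index across cell types lay between the index of the pgEpiSC pair and that of the pEF pair.

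At the other end, the islands of the 2 cell types took different parts of the region. Inside LRRFIP1, in the region chr15:137415401-137436600, the pgEpiSC islands lay from 0 to 11 kb from the region's start and the pEF islands from 9.0 to 21.2 kb, with a mean index of 0.031 across cell types. The pgEpiSC islands there had authors' folds of 1.35 to 2.01, and the pEF islands 2.78 to 5.51. The 42.6 kb region chr7:834001-876600 held ends of GMDS, an enzyme gene of GDP-fucose synthesis, and FOXC1, a forkhead factor gene of mesenchymal development. Its pgEpiSC islands began 15.2 kb from the start or later, all but 1 of its pEF islands ended by 16.8 kb, and the index across cell types was 0.040, compared with 0.599 within pgEpiSC and 0.670 within pEF. Regions inside CSRNP3 and INPP5B and between genes near PIGN had indices of 0.028, 0.061 and 0.071 across cell types. Such regions were joined by overlaps between islands, and at 15 of the 956 no 200 bp window was covered in all 4 libraries: 2 held a gene end, 7 lay inside a gene, including TWIST2 and SMURF2, and 6 lay between genes.

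Gene ends gathered in the part that all 4 libraries covered. The files used here give no strand, so a gene end stands for either end of a protein-coding gene and cannot be read as a transcription start. Windows of 200 bp covered in every library made up 43.8% of the base pairs of the shared regions and held 714 of their 1008 gene ends (70.8%), which is 4.83 ends per 100 kb. Windows covered in both pgEpiSC libraries and no pEF library made up 10.4% and held 61 ends, or 1.73 per 100 kb. Those covered in both pEF libraries and no pgEpiSC library made up 9.04% and held 50 ends, or 1.64 per 100 kb. The remaining 36.7%, covered in other combinations of libraries, held 183 ends, or 1.48 per 100 kb. The same order between common and partial windows held in the other broad regions, with 7.80 ends per 100 kb of common windows in regions longer in pgEpiSC and 4.58 in regions longer in pEF.

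Of the shared regions, 488 held a gene end (51.0%), 284 lay wholly inside a gene (29.7%) and 184 lay between genes (19.2%). A gene end was present in 49.2% of the regions longer in pgEpiSC, 37.3% of those longer in pEF and 47.6% of all regions with an island in every library. Shared regions at a gene end had a median index of 0.637 across cell types, those inside a gene 0.555 and those between genes 0.565. Ordered by that index, a gene end was present in 38.1% of the 42 regions under 0.25, 39.9% of the 238 from 0.25 to 0.5, 52.6% of the 567 from 0.5 to 0.75 and 72.5% of the 109 at 0.75 or above. Median width in these 4 bins, from low to high overlap, was 23.8, 26.4, 29.6 and 32.2 kb, and the part of width in the gene end shares was not tested. In all, 747 protein-coding genes had an end in a shared region, and 246 lay inside one from end to end.

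Read density was measured in ChIP reads per covered kb per 1000000 island reads of the library. A library's average density over all its islands is therefore set by its covered length, 397 and 401 Mb in pgEpiSC, against 265 and 267 Mb in pEF. This average is lower in pgEpiSC by construction, and density differences at single regions include that offset. The median density over the shared regions was 2.61 and 2.57 in pgEpiSC 1 and 4, against 4.17 and 4.15 in pEF 1 and 2. Over all regions with an island in every library the medians were 2.59 and 2.61 in pgEpiSC, against 3.78 and 3.62 in pEF, so the shared regions stood above that level in pEF and close to it in pgEpiSC. The median log2 ratio of pgEpiSC over pEF density was -0.61 in the shared regions, -0.41 in all regions with an island in every library, -0.17 in regions longer in pgEpiSC and -1.03 in regions longer in pEF. With only islands of at least 2-fold over input, a limit that 367 and 490 shared regions missed in pgEpiSC 1 and 4, against 8 and 4 in pEF 1 and 2, the median log2 ratio was 0.51 in the 418 regions then shared and 0.46 in all regions. The direction of the density difference therefore depends on which islands enter.

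Both pEF libraries were denser than both pgEpiSC libraries at 740 shared regions (77.4%), where 56% of all regions with an island in every library showed this. The opposite held at 53 shared regions (5.54%), with 17.2% in all regions. Fold over input, ChIP reads divided by scaled input reads over the islands of a region, had medians of 2.15 and 1.99 in pgEpiSC 1 and 4, against 6.18 and 6.03 in pEF 1 and 2. Both pEF folds exceeded both pgEpiSC folds at 943 shared regions (98.6%), with 89.8% in all regions and the opposite in 1.06%. By reads per region, the edgeR quasi-likelihood test over the 20051 regions, with Benjamini-Hochberg adjustment, placed 23 shared regions (2.41%) higher in pgEpiSC and 387 (40.5%) higher in pEF. Over all 20051 regions these shares were 22.7% and 23.5%. The length rule uses the same contrast, so nothing is read from these counts. The median log2 fold change of reads, pgEpiSC over pEF, was -0.56 over the shared regions and -0.006 over all regions tested. Without pgEpiSC 1 or pgEpiSC 4 it was -0.52 and -0.60 over the regions then shared, with -0.020 and -0.013 over all regions.

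Densities of the 956 regions followed each other closely within a type and loosely across types. Spearman's rank correlation was 0.914 for the pgEpiSC pair and 0.841 for the pEF pair, and 0.400 to 0.487 for the 4 pairs across cell types. These points share their libraries and regions, and the coefficients are given as a description. From low to high overlap across cell types, the median density of the 4 overlap bins was 2.69, 2.92, 3.56 and 4.38.

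IRF2BP2, which encodes a corepressor that binds IRF2, and its relative IRF2BPL were both among the 10 shared regions of highest mean density over the 4 libraries. IRF2BPL, with the region chr7:100100801-100150800, had 3.57 and 3.54 in the pgEpiSC libraries, against 13.5 and 16.8 in the pEF libraries. IRF2BP2, with chr14:56527601-56559400, had 4.35 and 3.54 in pgEpiSC, against 12.4 and 13.4 in pEF. In both regions the pEF libraries were above both pgEpiSC libraries, while covered length was similar, as the rule requires. The higher pEF densities weigh more in the mean by which these regions were picked, so nothing is read from that separation.

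LMNA, the nuclear lamina gene, shared the 67.2 kb region chr4:93896801-93964000 with MEX3A, an RNA-binding protein gene, and RAB25, an epithelial membrane traffic gene; its density was 4.20 and 3.96 in pgEpiSC 1 and 4, against 12.3 and 15 in pEF 1 and 2. NR4A2, an orphan nuclear receptor gene induced early by many signals, had 3.03 and 3.94 in the pgEpiSC libraries, against 12.6 and 15.1 in the pEF libraries. More even densities were found at the region of RHOF, a small GTPase gene, and SETD1B, a histone H3 lysine 4 methyltransferase gene, with 7.39 and 7.44 in pgEpiSC, against 9.58 and 9.46 in pEF. BCL9L, a beta-catenin coactivator gene, had 6.49 and 7.0 in pgEpiSC 1 and 4, against 8.09 and 11.4 in pEF 1 and 2. At all 4 of these regions the types did not overlap, and at IER2, an immediate early gene with 7.79 and 6.02 in pgEpiSC, against 10.6 and 8.13 in pEF, they did not overlap either. Both pEF libraries were denser at 77.4% of the shared regions and at 56% of all regions with an island in every library. The regions named here were also picked for high density, so nothing is read from the lack of overlap.

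The log2 density ratio was above 0 at 110 of the 956 regions. KIAA1522, in chr6:89049401-89082000, had the highest log2 ratio, 1.08, with 5.21 and 4.47 in pgEpiSC 1 and 4, against 2.67 and 1.90 in pEF 1 and 2. A region inside MYLK, the myosin light chain kinase gene, had 3.75 and 3.71 in pgEpiSC, against 1.59 and 1.96 in pEF. HM13, which encodes the signal peptide peptidase, had 5.56 and 4.08 in the pgEpiSC libraries, against 2.39 and 2.62 in the pEF libraries. None of these 3 overlapped between types, but they were picked for a high ratio, so nothing is read from that.

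The lowest log2 ratio was -2.14 at KLF6, a Krüppel-like factor gene induced early by growth signals, where density was 2.87 and 2.80 in pgEpiSC 1 and 4, against 12.5 in both pEF 1 and pEF 2. Its 46.6 kb region, chr10:66462401-66509000, was covered over 35.0 and 32.2 kb in pgEpiSC, against 34.6 and 35.6 kb in pEF. CAVIN1, a caveolar coat protein gene, had a density of 1.95 and 2.06 in the pgEpiSC libraries, against 7.46 and 8.90 in the pEF libraries. RNF216, a ubiquitin ligase gene, had 2.22 in both pgEpiSC libraries, against 8.46 and 10.6 in pEF 1 and 2, in a region inside the gene. None of the 3 densities overlapped between types, whereas the covered lengths at KLF6 did. These regions were picked for a low ratio, so nothing is read from the separate densities.

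**Figure D4:**
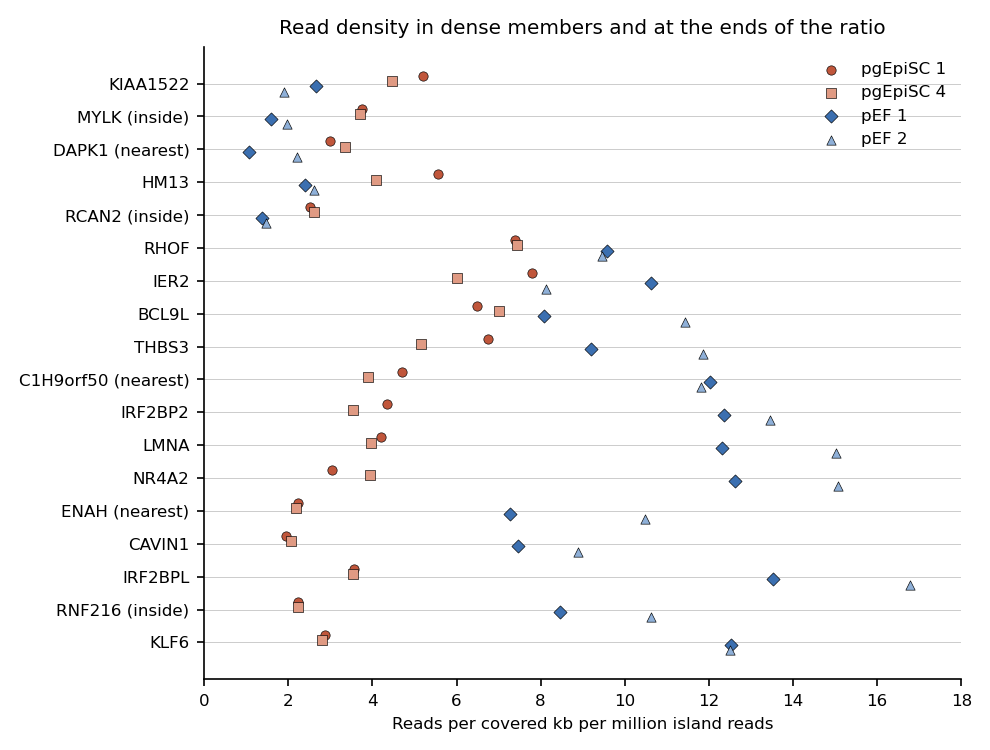
Points give the read density of each library, in reads per covered kb per 1000000 island reads, in 9 of the 10 densest shared regions and the 5 with the highest and 5 with the lowest log2 ratio of pgEpiSC over pEF (1 region is in more than 1 group). KIAA1522, MYLK and HM13 have both pgEpiSC libraries on the right, and KLF6 and IRF2BPL have both pEF libraries above 12.

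Of all 15689 protein-coding gene symbols, 4.76% had an end in a shared broad region, 7.98% in a region longer in pgEpiSC and 2.42% in a region longer in pEF. Against this background, 18 gene lists were counted, and since lists and regions were both chosen with results known, the counts describe the lists and carry no test. All lists stood above 4.76% except core pluripotency, fibroblast matrix and mesenchyme, and HOX genes. Housekeeping genes stood at 13.6%, so a share above 4.76% was common to most lists. Long or closely spaced genes can meet a region more often, which was not tested.

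Immediate early and AP-1 genes, which cells switch on within minutes of a growth or stress signal, had the highest share, 14 of 29 (48.3%). DUSP4 alone had an end in a region longer in pgEpiSC, and FOSL2, IER3, IER5, DUSP1 and DUSP6 had ends in regions longer in pEF. FOS, a subunit of AP-1, lay in the 37.2 kb region chr7:98418801-98456000 with a density of 3.85 and 4.44 in pgEpiSC 1 and 4, against 9.28 and 9.41 in pEF 1 and 2. FOSB, a second subunit, had 2.97 and 3.50 in the pgEpiSC libraries, against 9.57 and 12.4 in the pEF libraries. JUNB, a partner of FOS proteins, had 4.59 and 4.93 in pgEpiSC, against 10.4 and 12.1 in pEF. All 3 had similar length and no overlap in density: at FOSB the covered length was 28.0 and 27.8 kb in pgEpiSC, against 25.8 and 25 kb in pEF.

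JUND, another JUN family gene, had a density of 4.82 and 5.13 in pgEpiSC 1 and 4, against 8.12 and 7.69 in pEF 1 and 2. ATF3, a stress-induced partner of JUN proteins, had 4.54 and 4.14 in the pgEpiSC libraries, against 6.62 and 5.41 in the pEF libraries. MCL1, a survival factor gene of the BCL2 family, had 4.06 and 3.77 in pgEpiSC, against 10.5 and 13.3 in pEF, in a 51.2 kb region that also held an end of ADAMTSL4. Densities were thus higher in both pEF libraries at these genes too, with the offset from covered length included. The log2 density ratio was -0.67 at JUND, -0.47 at ATF3 and -1.60 at MCL1. Over all regions with an island in every library its median was -0.41, so the difference at ATF3 was close to the general one. SRF, the transcription factor through which serum induces FOS, had 6.54 and 6.16 in pgEpiSC 1 and 4, against 5.62 and 7.54 in pEF 1 and 2, which overlapped. KLF4, a Krüppel-like factor known both from this response and from pluripotent cells, had a 27.8 kb region with an index of 0.40 across cell types, and its density was 3.17 and 3.42 in pgEpiSC, against 7.24 and 6.83 in pEF. The remaining genes of the list with a shared region were IER2, KLF6, DUSP5, ZFP36, ZFP36L2 and BTG2. The median log2 density ratio over the regions of the list was -0.70, compared with -0.61 over all shared regions.

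Heat shock and stress genes followed with 9 of 22 (40.9%). HSPA8, a constitutive chaperone gene, lay in the 40.2 kb region chr9:49977601-50017800, covered over 33.2 and 30.2 kb in pgEpiSC 1 and 4, against 31.6 and 36.0 kb in pEF 1 and 2. HSPA5, the chaperone gene of the endoplasmic reticulum, was covered over 15.4 and 15 kb in the pgEpiSC libraries, against 18.2 and 23.4 kb in the pEF libraries. DDIT4, a stress-induced inhibitor of mTOR, had a 50 kb region, chr14:75073801-75123800, covered over 48.4 and 47.2 kb in pgEpiSC, against 36.2 and 36.4 kb in pEF. Covered lengths overlapped between the types at HSPA8 and not at the other two. HSPB1, HSF1, BAG3, SQSTM1 and SLC7A11 also had an end in a shared region, as did HSP70.2, which was matched to HSPA1A, has near-identical copies and is uncertain for that reason. The median log2 density ratio over the regions of the list was -0.41. With a minimum width of 30 kb, or with only islands of at least 2-fold over input, the count was 3.

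Actin cytoskeleton and adhesion genes gave 12 of 34 (35.3%) in shared regions and a nearly equal 11 in regions longer in pEF, with PXN and CAPZB in regions longer in pgEpiSC. PXN, a focal adhesion scaffold gene, had ends in 2 regions of different class. MYH9, in the region chr5:11362001-11424200, was covered over 61.2 and 56.2 kb in pgEpiSC 1 and 4, against 60 and 59.4 kb in pEF 1 and 2. VCL, which links integrin adhesions to actin, had a 102.0 kb region, chr14:76680601-76782600, covered over 80.4 and 80.6 kb in the pgEpiSC libraries, against 82.6 and 94.0 kb in the pEF libraries. Its density was 2.52 and 2.59 in pgEpiSC, against 2.44 and 2.99 in pEF, so the densities overlapped while both pEF lengths were longer.

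ACTN1 and ACTN4 encode the non-muscle alpha-actinins, which crosslink actin filaments. ACTN1 had a 98.4 kb region, chr7:92559001-92657400, covered over 68.4 and 72.6 kb in pgEpiSC 1 and 4, against 91.0 and 89.4 kb in pEF 1 and 2. ACTN4 had a 77.0 kb region with a density of 2.83 and 2.94 in the pgEpiSC libraries, against 7.88 and 6.30 in the pEF libraries. Neither of these measures overlapped between types. TLN1, MYH10, PFN1, RHOA, ITGB5 and EZR were also among the list's shared genes, and the median log2 density ratio over its regions was -0.38. The count was 5 with only islands of at least 2-fold over input, 7 at a minimum width of 30 kb, 6 at a stricter limit on the length ratio and 20 at a limit of 2-fold, so it depends on those limits.

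Among transcription factor genes of the KLF, SP and NFI families and related zinc finger factors, 5 of 23 had an end in a shared region: KLF3, KLF7, KLF9, KLF13 and MAZ. KLF9, a factor induced by glucocorticoid and thyroid hormones, had a density of 4.22 and 4.62 in pgEpiSC 1 and 4, against 10.8 and 12.5 in pEF 1 and 2. KLF3, a repressor of the family, had 4.30 and 3.83 in the pgEpiSC libraries, against 9.15 and 10.1 in the pEF libraries. Both were higher in each pEF library. Nuclear receptors and cofactors gave 4 of 21, namely RARA, the retinoic acid receptor alpha gene, VDR, the vitamin D receptor gene, and THRA and NR1D1, which share 1 region. RARA was covered over 40.6 and 39.6 kb in pgEpiSC, against 47.2 and 47.8 kb in pEF.

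The signalling lists differed in where their other genes lay. Of 30 TGF-beta and BMP signalling genes, 5 had an end in a shared region, 5 in one longer in pgEpiSC and 5 in one longer in pEF. The shared genes were SMAD6 and SMAD7, inhibitory SMADs, SKIL and TGIF1, nuclear corepressors of the pathway, and ID3, a target of BMP. SMAD7 had a 53.6 kb region, chr1:98506001-98559600, covered over 42.0 and 42.8 kb in pgEpiSC 1 and 4, against 42.6 and 43.0 kb in pEF 1 and 2, with an index of 0.59 across cell types. ID3 had the 64.0 kb region chr6:81406201-81470200 with a density of 3.65 and 3.68 in the pgEpiSC libraries, against 9.64 and 10.5 in the pEF libraries. Lengths at SMAD7 overlapped between types, and densities at ID3 did not.

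For FGF, EGF and IGF signalling 6 of 31 genes had an end in a shared region and 12 in a region longer in pgEpiSC. The shared genes were the feedback inhibitors SPRY2 and ERRFI1, the receptors EGFR and IGF1R, the adaptor IRS2 and the binding protein IGFBP2, and EGFR also had an end in a region longer in pgEpiSC. ERRFI1 had a 61.2 kb region, chr6:68669601-68730800, covered over 42.2 and 37.6 kb in pgEpiSC 1 and 4, against 56.4 and 54.0 kb in pEF 1 and 2. WNT signalling gave 2 of 27 shared, FZD2, a receptor, and RNF43, a ubiquitin ligase that removes receptors, with 10 in regions longer in pgEpiSC. YAP, TEAD and target genes gave 3 of 19 in each class. YAP1, the coactivator of the Hippo pathway, had an end in 2 shared regions, and the 57.8 kb one had densities of 2.66 and 2.65 in the pgEpiSC libraries, against 2.82 and 2.78 in the pEF libraries, close values that did not overlap. TEAD1, its DNA-binding partner, had 3.91 and 4.02 in pgEpiSC, against 4.99 and 3.93 in pEF, which overlapped.

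Genes of general cell functions were counted in 5 lists. Translation and ribosome genes gave 6 of 24 (25%), chromatin and transcription regulators 6 of 39, and the lists of cell cycle, housekeeping and splicing genes 3 of 22, 3 of 22 and 3 of 25. ARID1A, a subunit of the BAF remodelling complex, was among the few denser in pgEpiSC, with 6.54 and 5.66 in pgEpiSC 1 and 4, against 4.70 and 4.62 in pEF 1 and 2. CDKN1A, the p21 cell cycle inhibitor gene, had a density of 3.12 and 2.41 in pgEpiSC, against 7.45 and 8.06 in pEF. Neither density overlapped between types. ACTB, the beta-actin gene, UBB, a ubiquitin gene, and POLR2A, which encodes the largest subunit of RNA polymerase II, were the housekeeping genes with a shared region. ACTB had 5.0 and 6.58 in pgEpiSC, against 8.33 and 4.80 in pEF, so the pEF libraries lay on both sides of the pgEpiSC pair.

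Identity genes had most of their broad regions in the other classes. Of 18 core pluripotency genes 0 had an end in a shared region, while 11 had an end in a region longer in pgEpiSC, among them LIN28A, SALL4 and DNMT3B. The fibroblast matrix and mesenchyme list gave 1 of 28 (3.57%), COL5A1, a fibrillar collagen gene, with 13 in regions longer in pEF. For lists of this size both counts in shared regions are close to the 4.76% of all coding genes, and nothing is read from them. COL5A1, in chr1:273913201-273958600, was covered over 31.6 and 23.0 kb in pgEpiSC 1 and 4, against 36.4 and 34.0 kb in pEF 1 and 2, and its density was 1.78 and 1.97 in the pgEpiSC libraries, against 5.35 and 5.96 in the pEF libraries. Epithelial adhesion genes gave 2 of 24, CGN, a tight junction gene, and RAB25, which shares the dense region of LMNA, with 8 in regions longer in pgEpiSC. No HOX gene of 20 had an end in a broad region of any class. Every class requires an island in every library, so broad regions missing from a library were not counted. The length rule sends a gene with unequal coverage to another class. Among markers of other cell types, SFN of 6 keratinocyte genes and NES of 6 neural genes had an end in a shared region, and 0 of 8 endothelial, 0 of 7 blood, 0 of 7 skeletal muscle and 0 of 6 trophectoderm and amnion genes did.

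**Figure D5:**
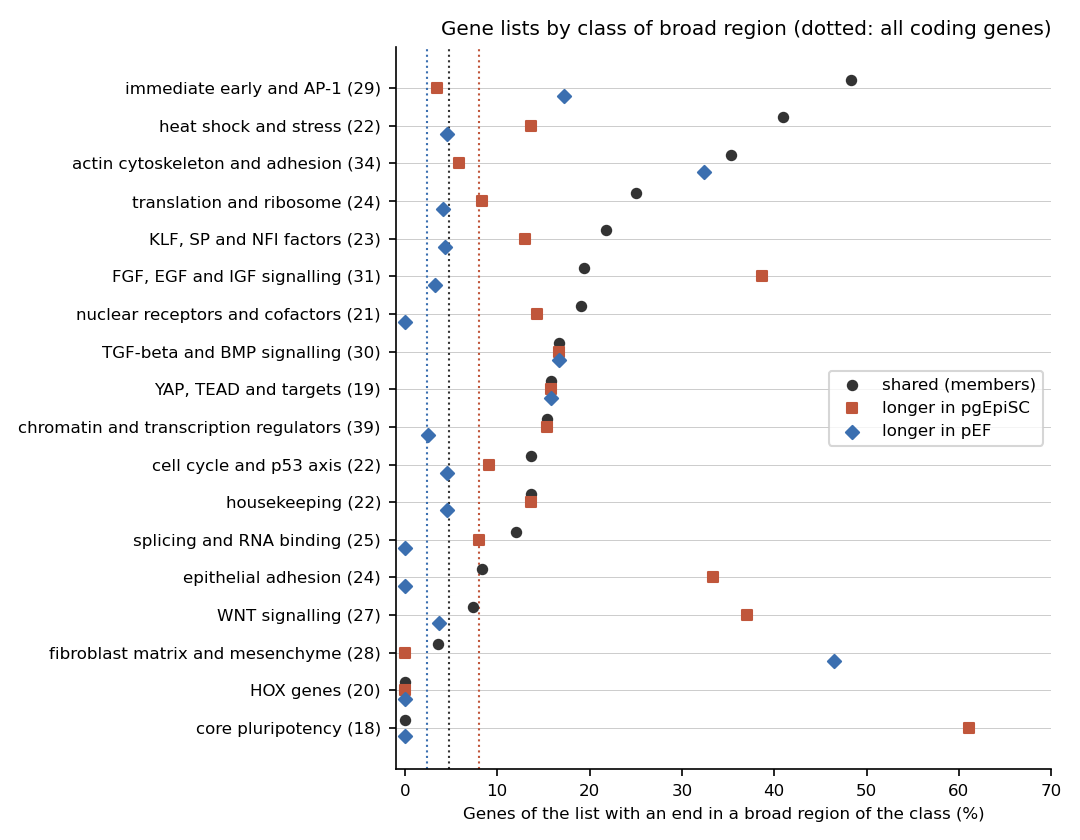
For each of 18 gene lists (matched genes in brackets), points give the percentage of genes with an end in a shared broad region, in one longer in pgEpiSC and in one longer in pEF, and dotted lines give the same over all coding genes (4.76, 7.98 and 2.42%). Immediate early and AP-1 genes stand at 48.3% in shared regions, and core pluripotency genes at 0%.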

How the data were processed

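H3K27ac ChIP-seq libraries of pgEpiSC (1 and 4) and pEF (1 and 2) were analysed from the island lists the authors deposited, 1 per library; input reads of the 4 input libraries were read from these lists. BWA 0.7.15, SAMtools 0.1.19 and SICER 1.1 are named per the submitters' processing notes. The deposited count columns hold ChIP and input reads per island. The deposited p-value columns hold each island's p-value against input and its FDR, and the deposited fold is a ratio, ChIP reads over input reads scaled to library size. The lists hold islands without an FDR limit, so weak islands enter, and DNA fragments of 200 to 500 bp limit resolution. How reads were filtered for mapping quality and duplicates is not given in the sources used here.

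Islands overlapping by at least 1 bp on chromosomes 1 to 18 were merged (Python 3.11.15, pandas 2.3.3). Counts of the 20051 regions with an island in all 4 libraries were tested with edgeR 4.0.16 (quasi-likelihood, TMM, Benjamini-Hochberg), with limma 3.58.1 on input-subtracted log2 values and DESeq2 1.42.0 as alternatives. Scripts were tested on simulated data. There the edgeR test recovered 9 of 100 regions changed 2-fold and 82 of 100 changed 4-fold, so a region that was not called may still differ. Region members had at least 111 ChIP reads in every library, and all 956 entered the test. Coordinates are the authors'. The build was not named; all 191 unplaced sequence names carry the prefix of the current pig assembly (Sscrofa11.1), and on 18 of 18 chromosomes islands held gene ends more often than points shifted by 20 kb, so the RefSeq gene table of that assembly was used for names. No genome sequence was used here, so none is printed.

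The members and gene lists were chosen with earlier results of these data known. Of 482 distinct listed genes, 458 matched. Named regions were the 10 widest, the 10 densest, the 5 at each end of overlap and of density ratio, up to 4 per gene list and 3 on each side of each threshold. Other genes named as members of a list, with the values given for them, and the regions of the closing section were chosen after their values were seen. A few of the named regions and genes are not reported here.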

Additional observations from a re-analysis of the deposited data

Results flagged for a closer look

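Chromosome X and the unplaced sequences were not part of the merge on chromosomes 1 to 18, and both held broad regions within the same thresholds. On chromosome X there were 5, the widest of 42.0 kb, and PRKX, a protein kinase gene, had an end in one of them. On unplaced sequences there were 8, the widest of 50.4 kb, none with a named gene end. Both were picked out because they are signal in data outside the regions described above. Another 16 broad regions on chromosome X and 35 on unplaced sequences were longer in pgEpiSC, and 10 and 0 were longer in pEF.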

How the results depend on the processing

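The 956 shared regions became 418 with only islands of at least 2-fold over input, 432 at a minimum width of 30 kb, 1615 at 15 kb, 533 at a stricter limit on the length ratio and 1534 at a limit of 2-fold, and 796 to 889 with 1 library left out. Under the same 5 settings the regions with a gene end (488) numbered 261, 248, 786, 267 and 740, and 379 to 415 with 1 library left out. The median overlap across cell types (0.602) was 0.565, 0.628, 0.582, 0.631 and 0.534 under them, 0.582 with islands at an FDR under 1e-10, 0.753 as a reciprocal share and 0.623 to 0.646 with 1 library left out. The median log2 density ratio (-0.61) reversed to 0.51 with islands of at least 2-fold, and was -0.34 at the FDR limit, -0.64 at 30 kb, -0.59 at 15 kb and at a ratio under 2-fold, -0.57 per kb of the merged region and -0.65 to -0.59 with 1 library left out; the cause was not tested. Of the 410 regions past the edgeR test, input subtraction with limma gave 642 (11 higher in pgEpiSC, 631 in pEF), the FDR limit 268 and the 2-fold limit 101 (22 and 79), and leaving out 1 library gave 73 to 488, the lowest without pgEpiSC 1. The lone library of a type was then taken to vary like the pair of the other. Calls over all regions tested moved the same way, in both directions of change. They fell when either pgEpiSC library was left out and rose when either pEF library was left out. The drop was thus not particular to the shared regions, and nothing is read from it. Over all regions tested, input subtraction with limma placed 2457 of 20051 higher in pgEpiSC and 7409 higher in pEF. The FDR limit placed 3612 and 3637 of 15294, and the 2-fold limit 2305 and 2201 of 8893. The limma counts thus leaned to pEF over all regions too, and nothing is read from the counts in shared regions. Immediate early and AP-1 genes numbered 9 at 30 kb and 12 to 15 with 1 library left out. No paired analysis was possible because the groups share only the replicate number 1. Pairs of libraries and weak contrast to input in pgEpiSC limit every value above.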

Other observations

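MicroRNA genes lay in 13 shared broad regions, 17 genes in all. The region of MIR21, a microRNA gene widely expressed in cultured cells, was 59.4 kb wide, held an end of TUBD1 and was covered over 55.0 kb in both pgEpiSC libraries, against 34.2 and 41.6 kb in pEF 1 and 2. Its read density was 4.93 and 4.59 in pgEpiSC 1 and 4, against 8.49 and 10.8 in pEF 1 and 2, so coverage was longer in pgEpiSC and density higher in pEF. The 91.8 kb region of C10H9orf3, with an index of 0.911 across cell types, held the cluster of MIR23B, MIR27B and MIR24-2. MIR155 lay in a 28.0 kb region between coding genes, MIR29B-2 and MIR29C in a region with an end of CD46, MIR132 and MIR212 in a region with an end of SMG6, and MIR142 in a region with an end of SUPT4H1.

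Some regions held many genes. At least 4 coding genes had an end in 21 of the 956 regions, and 6 genes in 5 of them. TSPAN4, CD151 and 3 other genes shared a 23.2 kb region with a density of 2.36 and 2.51 in pgEpiSC 1 and 4, against 10.3 and 9.16 in pEF 1 and 2. MIDN, CIRBP and 4 other genes shared a 56.0 kb region with 4.73 and 4.62 in the pgEpiSC libraries, against 6.54 and 5.41 in the pEF libraries. Shared regions also lay close to each other: of 938 pairs of neighbours, 102 were within 20 kb and 220 within 100 kb, and 2 regions at FOS, of 37.2 and 21.2 kb, abutted with a gap of 0 kb.

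The region at CYB5R1 had fewer ChIP than scaled input reads in every library. Its fold over input was 0.102 and 0.0946 in pgEpiSC 1 and 4, against 0.158 and 0.137 in pEF 1 and 2. Input there reached 817 and 879 reads per covered kb in pgEpiSC, against 742 and 714 in pEF, where the medians over the shared regions were 36.8 and 40.5 in pgEpiSC, against 36.3 and 35.6 in pEF.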
